A study of Homo sapiens with 3 samples.

Results

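The genes described here make cholesterol, control its making, build and desaturate fatty acids, and move lipids out of lysosomes and out of the cell. They were chosen by name as a list of 32, and every probe set that the platform annotation gives to 1 of them was taken. Of the 54613 non-control probe sets on the array, 70 belonged to 31 of the 32 genes. FDFT1, the squalene synthase gene, had no probe set in the annotation used and was not analysed here. The cells were SK-Mel-28, an established human melanoma line, stably transfected with the hairpin vector pSilencer 3.1-H1 neo, which carries an RNA polymerase III promoter and a drug resistance marker. In the MTf siRNA group (2 arrays, labelled B1 and B2 and called siRNA array 1 and siRNA array 2 here) the vector expressed a hairpin against melanotransferrin (MTf, gene MELTF), an iron-binding protein of the melanoma cell surface. In the scrambled group (1 array) it expressed a scrambled hairpin. Whether B1 and B2 are different clones, or repeat cultures or hybridisations of 1 clone, is not in the labels. The p-values therefore rest only on the scatter between those 2 arrays, which limma shares in part over all probe sets or genes tested. That scatter may be technical.

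Cells make cholesterol from acetyl-CoA through mevalonate, isoprenoids, squalene and lanosterol. The transcription factors of the SREBP family, held in the endoplasmic reticulum by INSIG proteins when sterols are plentiful and escorted to the Golgi by SCAP when they are scarce, drive the genes of this pathway and of fatty acid synthesis. Cholesterol that enters by endocytosis is freed from its esters in lysosomes by acid lipase and leaves through NPC2, a soluble carrier of the lysosome lumen, and NPC1, a membrane transporter that receives sterol from it. Surplus cholesterol is exported by ABC transporters.

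The arrays read 1 signal per probe set on a linear scale, with medians of 174.3 and 199.5 on the siRNA arrays and 160.6 on the scrambled array. Of the 8 melanocytic markers listed, 7 had a probe set, and the brightest probe set of each read between 5022 and 69169 over the 3 arrays. By limma over genes 1 of the 7 fell and 1 rose, beside 1.99% lower and 2.70% higher of all genes. TYRP1, a melanosomal enzyme, fell to 5022 and 12370 on the siRNA arrays, against 53204 on the scrambled array (log2 difference -2.75 ± 0.44, SE; adjusted p = 0.0215 by limma). TYR, the tyrosinase gene, rose to 35193 and 37555 on the siRNA arrays, against 19988 on the scrambled array (log2 difference 0.86 ± 0.17, SE; adjusted p = 0.0337 by limma). Their part in the differences described here was not tested. Markers of epithelial cells summed to 213.9 and 329.7 on the siRNA arrays and 198.1 on the scrambled array, those of leukocytes to 170.8 and 176.2 against 265.4, those of endothelial cells to 345.1 and 546.9 against 445.4, and those of fibroblasts to 815.8 and 1042 against 1158. Bacterial trp control probe sets read up to 97.2, which is used here as a floor. Above it on any array were 1 of 4 epithelial, 1 of 2 leukocyte, 2 of 3 endothelial and 3 of 5 fibroblast markers. The brightest MELTF probe set read 18968 and 18974 on the siRNA arrays and 32608 on the scrambled array (adjusted p = 0.0699 by limma over probe sets), and the second brightest read 10567 and 11199 on the siRNA arrays and 8284 on the scrambled array (adjusted p = 0.318). None of the 4 MELTF probe sets passed the threshold.

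The lysosomal transporters moved in opposite directions. NPC1 was lower and NPC2 was higher in the siRNA cells, and these were the 2 of 27 tested genes that passed the threshold, NPC2 in the fit over genes only. In bulk RNA, fewer expressing cells and less RNA per cell cannot be told apart. Most enzymes of cholesterol synthesis read slightly higher in the siRNA cells, none past the threshold (11 of 14 by sign, beside 57.5% of all genes, and 10 with the arrays centred or quantile normalized, beside 44.6% and 51.7%), and most read higher on siRNA array 2 than on siRNA array 1. Of the 14, 8 were above the scrambled array on both siRNA arrays, beside 46.7% of all genes. Differences are given on the scale of log2(signal + pseudocount), siRNA minus scrambled, where the pseudocount of 47.4 damps the noise of dim probe sets. Each gene was represented by its brightest probe set past a filter at the median signal, and the test was limma's moderated test with Benjamini-Hochberg adjustment over all 12386 genes. Over all genes 4.70% passed at an adjusted p of 0.05, 2.70% higher and 1.99% lower (335 and 247 genes, against 298 and 569 with the arrays centred on their medians). With 1 scrambled array the spread rests on the siRNA arrays alone.

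Past the filter were 50 of the 70 probe sets. They covered 27 genes measured by a probe set of their own, plus CYP51A1, whose probe sets are shared with LRRD1. TM7SF2, MVD and ABCA1 were measured only by dimmer probe sets. Of the 27 genes, 19 had a positive difference, beside 57.5% of all genes, and 8 a negative one. The median was 0.33, beside 0.097 over all genes. On siRNA array 1 alone it was 0.11, beside 0.057, and on siRNA array 2 alone 0.51, beside 0.14. Both siRNA arrays lay above the scrambled array for 16 genes, beside 46.7% of all genes, and both below for 5, beside 32.5%. The arrays straddled the scrambled value for the other 6. Centring the arrays on their medians moved the median over all genes to -0.067 and that of the 27 to 0.16, with 17 positive and 10 negative, and SREBF2 and ACAT2 changed sign. At an unadjusted p under 0.05 there were 7 of the 27 (5 higher and 2 lower), beside 23.5% of all genes (14.2% higher and 9.30% lower), a share near the background.

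**Figure D1:**
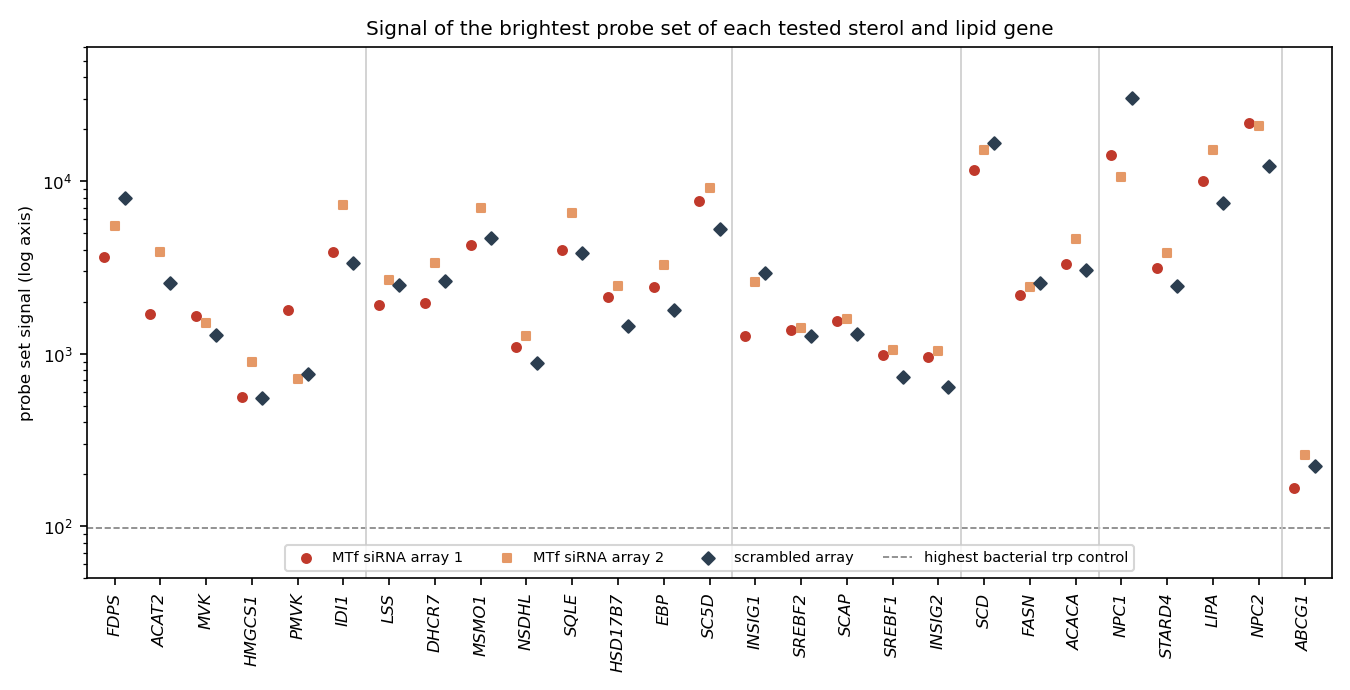
Signal of the brightest probe set of each of the 27 tested genes (log axis) on siRNA array 1 (circles), siRNA array 2 (squares) and the scrambled array (diamonds), with vertical lines between groups of genes by role. NPC1 reads 14281 and 10585 on the siRNA arrays, below its scrambled signal of 30230.2, and NPC2 reads 21626 and 20904, above its scrambled signal of 12191.

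The RefSeq promoter windows of 6 of these genes are shown, those other than SREBF2 because their signals carry the contrasts described here. The signal of SREBF2 hardly differed in its brightest probe set (log2 difference 0.13). They are those of the transporters that moved in opposite directions, of the sterol sensor partner INSIG1 and the factor gene SREBF2, and of the prenyl diphosphate enzymes FDPS and IDI1, which had the lowest and the highest difference among the early enzymes. Each window runs 5′ to 3′ on the gene's strand from 250 bases before to 50 bases after a transcript start, and capitals mark matches, on either strand, to TCACNCCAC (sterol response element), CCAAT (NF-Y box, which reads ATTGG on the other strand) and CACGTG (E-box, also inside TCACGTGA, the CLEAR motif of lysosomal genes).
NPC1, GRCh38.p14 chr18:23586457-23586756, minus strand: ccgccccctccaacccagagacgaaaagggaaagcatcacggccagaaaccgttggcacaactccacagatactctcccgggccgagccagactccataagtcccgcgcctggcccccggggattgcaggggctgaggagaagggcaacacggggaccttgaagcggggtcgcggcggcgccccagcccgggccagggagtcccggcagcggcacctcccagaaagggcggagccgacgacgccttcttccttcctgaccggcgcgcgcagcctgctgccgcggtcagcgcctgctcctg
NPC2, GRCh38.p14 chr14:74493463-74493762, minus strand: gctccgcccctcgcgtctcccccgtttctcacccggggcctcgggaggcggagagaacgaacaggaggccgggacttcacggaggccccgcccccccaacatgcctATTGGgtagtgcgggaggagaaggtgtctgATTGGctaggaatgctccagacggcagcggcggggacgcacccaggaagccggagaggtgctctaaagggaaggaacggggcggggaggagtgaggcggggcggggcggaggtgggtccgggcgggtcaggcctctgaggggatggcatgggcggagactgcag
SREBF2, GRCh38.p14 chr22:41832855-41833154, plus strand: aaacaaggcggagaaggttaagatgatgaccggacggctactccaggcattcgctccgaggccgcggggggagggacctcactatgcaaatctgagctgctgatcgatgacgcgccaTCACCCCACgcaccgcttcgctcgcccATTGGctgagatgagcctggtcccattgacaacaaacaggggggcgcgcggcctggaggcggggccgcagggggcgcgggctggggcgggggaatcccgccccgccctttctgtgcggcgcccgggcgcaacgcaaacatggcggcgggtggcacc
INSIG1, GRCh38.p14 chr7:155297628-155297927, plus strand: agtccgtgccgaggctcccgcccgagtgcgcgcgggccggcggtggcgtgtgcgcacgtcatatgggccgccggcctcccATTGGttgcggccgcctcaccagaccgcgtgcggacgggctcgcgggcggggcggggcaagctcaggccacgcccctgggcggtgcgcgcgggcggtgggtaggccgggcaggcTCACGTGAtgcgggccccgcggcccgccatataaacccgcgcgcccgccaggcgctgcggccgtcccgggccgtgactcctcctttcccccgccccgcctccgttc
FDPS, GRCh38.p14 chr1:155308616-155308915, plus strand: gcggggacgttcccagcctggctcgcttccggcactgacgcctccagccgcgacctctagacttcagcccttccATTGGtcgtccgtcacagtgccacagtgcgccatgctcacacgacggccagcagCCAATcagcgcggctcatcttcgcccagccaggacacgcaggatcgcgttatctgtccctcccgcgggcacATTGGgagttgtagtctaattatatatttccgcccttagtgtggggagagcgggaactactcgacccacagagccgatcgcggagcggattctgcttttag
IDI1, GRCh38.p14 chr10:1048837-1049136, minus strand: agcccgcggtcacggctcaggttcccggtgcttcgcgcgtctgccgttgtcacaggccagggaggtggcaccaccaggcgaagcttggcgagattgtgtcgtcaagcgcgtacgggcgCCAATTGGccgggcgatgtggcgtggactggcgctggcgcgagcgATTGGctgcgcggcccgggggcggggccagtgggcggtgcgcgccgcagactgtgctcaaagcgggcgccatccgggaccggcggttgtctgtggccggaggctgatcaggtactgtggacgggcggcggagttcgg

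Windows were found for 27 of the 32 genes, 38 windows in all, since some genes have several starts. CCAAT was in 24 of the 38 (63.2%), beside 34.6% of the 35116 windows of all genes. These letters were in every printed window but that of NPC1, and in IDI1 a match on each strand overlaps as CCAATTGG. Where a gene had several windows, as NPC2 and IDI1 did, the window with the most matches was printed, which favours matches. The NPC2 window not printed, chr14:74493256-74493555, held no CCAAT on either strand. So the contrast of NPC1 with NPC2 in these letters depends on the window chosen. The exact string TCACNCCAC, searched as the sterol response element, was in 1 of the 38 windows, beside 1.13% of all windows. That window was of SREBF2, where it stood as TCACCCCAC beginning 133 bases before the start. No other spelling of the element was searched, so a window without this string may still hold one. TCACGTGA was in 1, that of INSIG1, beginning 56 bases before the start, beside 0.980% of all windows. CACGTG was in 6, beside 7.26% of all windows. A match is only a match of letters, and no binding was measured.

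The early enzymes, which carry acetyl units through mevalonate to the isoprenoid diphosphates, had 6 genes tested of 8. By limma 0 passed the threshold, beside 4.70% of all genes, and 1 had an unadjusted p under 0.05, beside 23.5%. By sign 5 lay higher, beside 57.5% of all genes, and 1 lower. The median difference was 0.31, beside 0.097 over all genes. FDPS, which makes farnesyl diphosphate, was the lower one. It read 3613 and 5530 on the siRNA arrays and 7990 on the scrambled array. Both siRNA arrays were below the scrambled array, at 45.2% and 69.2% of its signal (log2 difference -0.83 ± 0.28, SE, n = 2 against 1; adjusted p = 0.126 by limma). IDI1, the isomerase just upstream, had the highest difference of the 6, with 3880 and 7308 on the siRNA arrays against 3353 on the scrambled array (log2 difference 0.66 ± 0.35, SE; adjusted p = 0.309 by limma). Only siRNA array 2 stood well above the scrambled array in that probe set. Its 4 tested probe sets differed by 0.66, 0.48, 0.58 and 1.02, all positive, the last in a dim probe set that read 285.2 and 419.8 against 147.2. Of the 4, 3 are of the kind whose probes can match other sequences.

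HMGCS1, which condenses acetyl units into HMG-CoA, read 559.7 and 892.2 on the siRNA arrays and 555.2 on the scrambled array. ACAT2, the cytosolic thiolase of the first step, read 1710 and 3883 on the siRNA arrays and 2555 on the scrambled array. So for ACAT2 one siRNA array lay below the scrambled value and the other above it, and the mean difference was 0.014 ± 0.43 (SE; 95% interval -0.98 to 1.01). PMVK, the phosphomevalonate kinase gene, was split the other way, at 1801 and 709.3 on the siRNA arrays against 766.7 on the scrambled array. The mevalonate kinase gene MVK read 1646 and 1510 on the siRNA arrays against 1279 on the scrambled array, and its 3 tested probe sets differed by 0.29, 0.36 and 0.17. The decarboxylase gene MVD was read by 1 dim probe set, at 13.3 and 20.5 on the siRNA arrays and 75 on the scrambled array. All of these are below the highest trp control signal, so no fold is given for MVD.

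The later enzymes turn squalene into cholesterol, and 8 of 10 were tested as genes of their own. By limma 0 passed the threshold, beside 4.70% of all genes, and 3 had an unadjusted p under 0.05, beside 23.5%. By sign 6 lay higher, beside 57.5% of all genes, and 2 lower. Their median difference was 0.41, beside 0.097 over all genes. SC5D, the lathosterol desaturase, was the highest, at 7707 and 9127 on the siRNA arrays against 5288 on the scrambled array (log2 difference 0.66 ± 0.21, SE; adjusted p = 0.113 by limma). Both siRNA arrays were above the scrambled one. Close to it were EBP, a sterol isomerase (2426 and 3268 on the siRNA arrays against 1789 on the scrambled array), and HSD17B7, a ketosteroid reductase (2118 and 2467 against 1453). The HSD17B7 probe set is of the kind that can match other sequences, and a probe set for the pseudogene HSD17B7P2 read 241.7 and 127.1 on the siRNA arrays and 175.8 on the scrambled array. A second EBP probe set differed by 0.83 and a dim one by 0.11, with 504.5 and 171.9 on the siRNA arrays against 275.8 on the scrambled array.

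SQLE, the squalene epoxidase that catalyses a rate-limiting step of the pathway, read 3982 and 6519 on the siRNA arrays against 3817 on the scrambled array in its brightest probe set. Its 3 tested probe sets differed by 0.41, 0.69 and 0.72, the last 2 in dimmer probe sets, and none passed the threshold. NSDHL, which decarboxylates a sterol intermediate, read 1093 and 1273 on the siRNA arrays against 879.7 on the scrambled array. MSMO1, a methyl sterol oxidase, read 4241 and 7025 on the siRNA arrays against 4690 on the scrambled array, so that the siRNA arrays straddled the scrambled value. The same was true of DHCR7, a sterol reductase late in the pathway, with 1962 and 3374 against 2631, and of LSS, lanosterol synthase, with 1926 and 2666 against 2496. LSS was the lowest of the 8 (log2 difference -0.14 ± 0.27, SE; adjusted p = 0.812 by limma).

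The probe sets shared by CYP51A1, the lanosterol demethylase gene, and its neighbour LRRD1 disagreed. The brighter read 5085 and 5243 on the siRNA arrays against 5342 on the scrambled array, a log2 difference of -0.048 ± 0.21 (SE). The other read 3820 and 4004 against 2524, a difference of 0.62 ± 0.23 (SE; adjusted p = 0.186 by limma over probe sets). Neither was counted for a gene, since the annotation does not separate the pair. TM7SF2, a sterol reductase gene, was dim, at 142.2 and 122.0 on the siRNA arrays and 77.0 on the scrambled array, the last of these below the highest trp control.

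**Figure D2:**
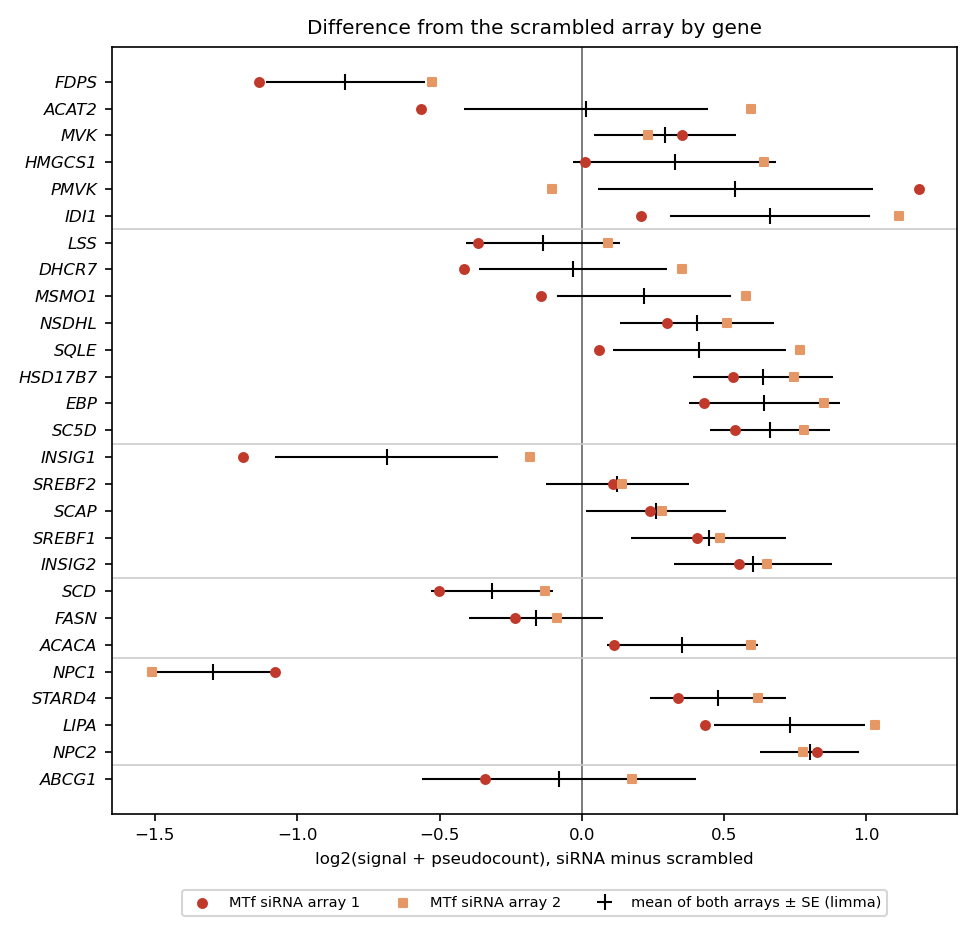
Log2(signal + pseudocount) difference from the scrambled array for siRNA array 1 (circles) and siRNA array 2 (squares), with their mean and limma's SE (black), for the 27 tested genes grouped by role. NPC1 (-1.29) and NPC2 (0.80) are the genes past the threshold, while FDPS, INSIG1, SCD and FASN also lie left of 0 on both arrays.

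The SREBP regulators had 5 of 5 genes tested, and limma called 0 of them, beside 4.70% of all genes. Before adjustment, at a p under 0.05, it was also 0, beside 23.5%. The median difference of the 5 was 0.26, beside 0.097 over all genes. The 2 INSIG genes, whose proteins retain SCAP in the endoplasmic reticulum, read differently. INSIG1, itself a target of SREBP, read 1266 and 2598 on the siRNA arrays against 2951 on the scrambled array. Both siRNA arrays were below the scrambled array, at 42.9% and 88.1% of its signal (log2 difference -0.69 ± 0.39, SE; adjusted p = 0.340 by limma). A second INSIG1 probe set read 679.7 and 1624 against 2193, and the dimmest 548.1 and 804 against 775, so siRNA array 1 was the lowest of the 3 arrays in each of the 3 probe sets. INSIG2 read 958.5 and 1030.3 on the siRNA arrays against 639.4 on the scrambled array, with both siRNA arrays above it (log2 difference 0.60 ± 0.28, SE; adjusted p = 0.244 by limma).

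SREBF2, which encodes the factor most tied to cholesterol genes, was read by 3 probe sets. The brightest read 1377 and 1410 on the siRNA arrays against 1274 on the scrambled array, a difference of 0.13 ± 0.25 (SE), which was -0.039 with the arrays centred on their medians. Another read 1665 and 1551 on the siRNA arrays against 836.6 on the scrambled array, a larger difference of 0.90 ± 0.26 (SE; adjusted p = 0.119 by limma over probe sets), and the third differed by 0.38. All 3 lay higher on both siRNA arrays, by unequal amounts. SREBF1, whose product is tied more to fatty acid genes, read 986.5 and 1045 on the siRNA arrays against 732.8 on the scrambled array (log2 difference 0.45 ± 0.27, SE; adjusted p = 0.371 by limma). SCAP, the escort, read 1554 and 1599 on the siRNA arrays against 1308 on the scrambled array.

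Fatty acid enzymes were few, with 3 of 3 tested, and limma called 0 of them, beside 4.70% of all genes. Before adjustment, at a p under 0.05, it was also 0, beside 23.5%. The median was -0.16, beside 0.097 over all genes. SCD, which introduces a double bond into saturated fatty acids, read 11684 and 15151 on the siRNA arrays against 16559 on the scrambled array. Its 4 probe sets differed by -0.31, -0.56, 0.082 and 0.28 from brightest to dimmest, so they did not share a direction. FASN, the fatty acid synthase gene, read 2188 and 2429 on the siRNA arrays against 2584 on the scrambled array. ACACA, the acetyl-CoA carboxylase that makes malonyl-CoA, read 3297 and 4620.0 on the siRNA arrays against 3046 on the scrambled array, a difference of 0.35 ± 0.26 (SE; adjusted p = 0.468 by limma).

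**Figure D3:**
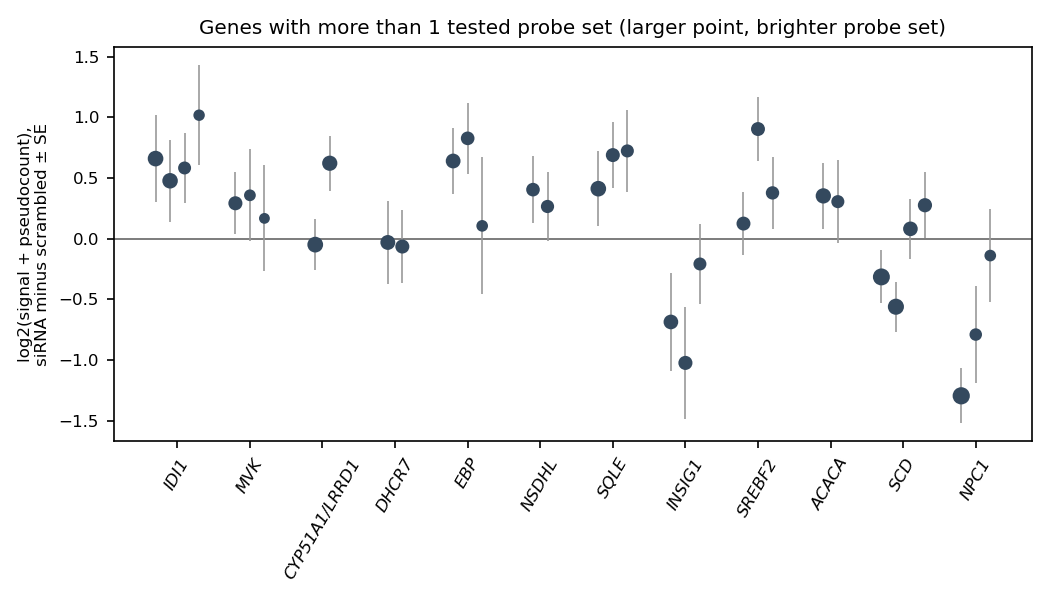
Log2(signal + pseudocount) difference, siRNA minus scrambled, with limma's SE, for every tested probe set of genes with more than 1, ordered from brightest to dimmest within a gene. The probe sets of SCD, and those shared by CYP51A1 and LRRD1, fall on both sides of 0, while all 3 of NPC1, INSIG1, SREBF2 and SQLE lie on 1 side.

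The lysosomal group had 4 of 4 genes tested, with a median of 0.60, beside 0.097 over all genes. Past the threshold by limma were 1 lower and 1 higher, beside 1.99% and 2.70% of all genes. At an unadjusted p under 0.05 were 3 of the 4, beside 23.5% of all genes. NPC1 fell to 14281 and 10585 on the siRNA arrays, against 30230.2 on the scrambled array, which is 47.2% and 35.0% of the scrambled signal. Both siRNA arrays were far below the scrambled array and closer to each other (log2 difference -1.29 ± 0.22, SE, 95% interval -1.81 to -0.78; 2.45-fold lower; adjusted p = 0.0250 by limma). Of the 12386 genes tested, 201 had a lower difference. NPC1 also passed in the fit over probe sets (adjusted p = 0.0424), 1 lower and 0 higher of the 50 tested by limma, beside 2.09% of all probe sets (1.19% higher and 0.905% lower), and 13 of the 50 had an unadjusted p under 0.05, beside 20.2% of all probe sets. Its brightest probe set was the only 1 of the 50 at least 2-fold lower or higher on both siRNA arrays, a size reached by 5.76% of all probe sets tested. A second NPC1 probe set read 543.1 and 298.5 on the siRNA arrays against 733.9 on the scrambled array (difference -0.79 ± 0.40, SE; adjusted p = 0.326). The next read 367.4 and 258.1 on the siRNA arrays against 344.5 on the scrambled array (difference -0.14 ± 0.39, SE; adjusted p = 0.886), and the dimmest was under the highest trp control on every array. With the mean of the 3 tested probe sets in place of the brightest, the difference was -0.74 and did not pass (adjusted p = 0.168). The calls of NPC1 and NPC2 were both lost with no filter (adjusted p = 0.0915 and 0.128) and with no trend in the spread (0.152 and 0.198).

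NPC2 rose to 21626 and 20904 on the siRNA arrays, against 12191 on the scrambled array, in its only probe set. The 2 siRNA arrays nearly coincided, at 177.4% and 171.5% of the scrambled signal (log2 difference 0.80 ± 0.18, SE, 95% interval 0.39 to 1.21; 1.74-fold; adjusted p = 0.0473 by limma over genes). In the fit over probe sets it did not pass (adjusted p = 0.0711), nor with the arrays centred on their medians (difference 0.64, adjusted p = 0.0670). LIPA, the lysosomal acid lipase that hydrolyses cholesteryl esters, read 10065 and 15254 on the siRNA arrays against 7450 on the scrambled array. Both siRNA arrays were above the scrambled array but unequal (log2 difference 0.73 ± 0.26, SE; adjusted p = 0.149 by limma). STARD4, a cytosolic sterol carrier, read 3137 and 3820 on the siRNA arrays against 2473 on the scrambled array (log2 difference 0.48 ± 0.24, SE; adjusted p = 0.278 by limma).

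The efflux transporters were close to the detection floor. ABCA1, which loads cholesterol onto apolipoprotein acceptors, had 4 probe sets, none past the filter. The brightest read 161.4 and 107.8 on the siRNA arrays and 119.0 on the scrambled array, and the others were under 97.2 on every array. ABCG1, which exports sterol to lipoprotein particles, had 1 of 4 probe sets past the filter, at 166.4 and 258.4 on the siRNA arrays and 223.1 on the scrambled array (log2 difference -0.081 ± 0.48, SE; adjusted p = 0.943 by limma). Its siRNA arrays lay on both sides of the scrambled array, and its interval, -1.20 to 1.04, is too wide to show a change of less than about 2-fold.

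The siRNA arrays differed from each other across the pathway. Of the 27 genes, 23 were higher on siRNA array 2 than on siRNA array 1, beside 55.8% of all genes, and the median of the difference, array 2 minus array 1, was 0.37, beside 0.048 over all genes. There was 1 array of each, so this has no test. Among the enzymes of cholesterol synthesis it was 12 of 14, with a median of 0.53. ACAT2 (1.16), INSIG1 (1.01), IDI1 (0.91), DHCR7 (0.77), MSMO1 (0.72), SQLE (0.70), HMGCS1 (0.63) and FDPS (0.61) had the 8 largest values of the 27. SREBF2 (0.033), SCAP (0.040), SREBF1 (0.080) and INSIG2 (0.099), which control the pathway, read nearly alike on both arrays in their brightest probe sets. INSIG1, also a regulator, did not. The dimmer SREBF2 probe sets read lower on siRNA array 2 than on siRNA array 1 (1551 against 1665, and 875.5 against 1128). Among the 27 genes the exceptions in direction were PMVK (-1.29), NPC1 (-0.43), MVK (-0.12) and NPC2 (-0.049). The ribosomal RNA control probe sets were at 4.01 times their scrambled signal on siRNA array 1 and 0.963 times on siRNA array 2, and their part in this was not tested. With the arrays centred or quantile normalized the share stayed at 85.2% of the 27, and with the mean of a gene's probe sets it was 74.1%.

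**Figure D4:**
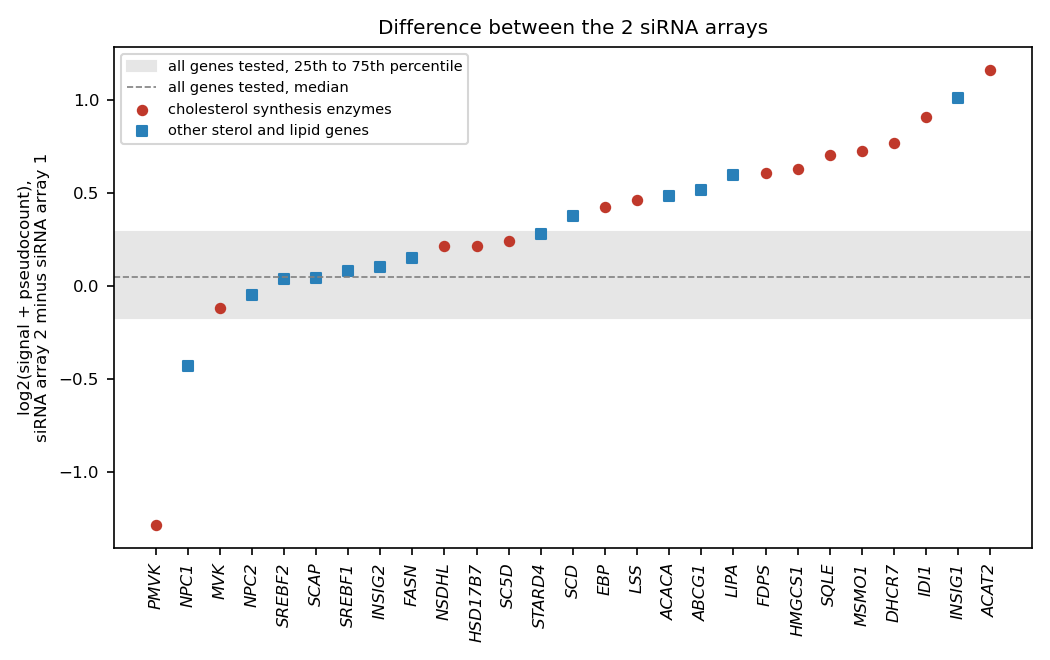
Log2(signal + pseudocount) difference, siRNA array 2 minus siRNA array 1, for the 27 tested genes in rising order, enzymes of cholesterol synthesis as circles and the others as squares. The grey band is the 25th to 75th percentile of all 12386 genes (-0.17 to 0.29); ACAT2, INSIG1 and IDI1 lie highest and PMVK lowest.

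Other genes of the same pathways, listed by function, were mostly not called. Of 11 further genes tested, of sterol synthesis, SREBP processing, esterification and related steps, 0 passed limma's threshold, with a median of 0.089. At an unadjusted p under 0.05 by limma there were 3, beside 23.5% of all genes. Among these was GGPS1, which makes geranylgeranyl diphosphate from the product of FDPS. It read 3005 and 3288 on the siRNA arrays against 4982 on the scrambled array. The others were the SREBP protease gene MBTPS2 (9558 and 8443 against 12571) and the thiolase gene ACAT1 (6652 and 7762 against 4808). ACAT1 is not the cytosolic thiolase of the pathway, which is ACAT2. TMEM97, a sterol-regulated binding partner of NPC1, read 4065 and 7023 on the siRNA arrays against 3711 on the scrambled array. Of 7 further fatty acid genes tested, 1 rose, beside 2.70% of all genes. Of the 7, 3 had an unadjusted p under 0.05, beside 23.5% of all genes. The gene that rose was ELOVL6, the palmitate elongase, with 1677 and 2342 on the siRNA arrays against 741.2 on the scrambled array (log2 difference 1.36 ± 0.29, SE; adjusted p = 0.0436 by limma over genes, and 0.0673 over probe sets). The ELOVL6 call was lost with quantile normalization (0.0894), a pseudocount at the 50th percentile (0.0530), no filter (0.119), a filter at the 75th percentile (0.0631) and no trend (0.150). A dimmer ELOVL6 probe set read 754.7 and 1071 on the siRNA arrays against 331.8 on the scrambled array. Of 12 genes of LXR signalling and sterol carriage tested, 0 passed limma's threshold (median 0.054), and 2 had an unadjusted p under 0.05, beside 23.5% of all genes. These were OSBPL9 and the HDL receptor gene SCARB1 (4882 and 7001 on the siRNA arrays against 3122 on the scrambled array).

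Of 7 lysosomal genes tested beside the members, 7 had a positive difference (6 with the arrays centred), beside 57.5% of all genes, with a median of 0.51, and 0 passed limma's threshold. Of these, 6 had an unadjusted p under 0.05, beside 23.5% of all genes (14.2% higher). The list was chosen with earlier results of these data known. Most of its probe sets were bright, with a small SE (0.17 for LAMP1). All genes are therefore not a like background, and the count is a description only. They included SMPD1, the acid sphingomyelinase gene, with 4754 and 6626 on the siRNA arrays against 2958 on the scrambled array, the calcium channel gene MCOLN1 (881.7 and 900.5 against 464.8) and the protease gene CTSD (6972 and 7182 against 4583). The membrane proteins LAMP1 (27776 and 28763 against 21430) and LAMP2 (28363 and 27642 against 19652) read higher on both siRNA arrays. SCARB2, another of the 7, hardly differed, at 10769 and 11906 against 10674 (log2 difference 0.085; adjusted p = 0.837 by limma). By sign in the main setting, NPC1 lay in the opposite direction to the 7, to NPC2 and to LIPA. For SCARB2 that sign is of a value near 0.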

How the data were processed

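RNA of SK-Mel-28 cells was hybridised to single-channel Affymetrix U133 Plus GeneChips, 2 for MTf siRNA and 1 for the scrambled hairpin. The authors deposited 1 linear intensity for each probe set and array. GCOS 1.3 is the software named, per the submitters' processing notes. On each array the mean after trimming 2% at each end was close to 1000 (1000.12, 1000.13 and 1000.14), and no other setting is stated in the sources used here. There were 0 value columns of other samples, and the depth of an array is not a count, so the number of arrays limits the precision.

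The 62 control probe sets were left out. Signals were analysed as log2(signal + 47.4), the pseudocount being the 25th percentile. Those whose mean exceeded the median (7.74) entered the tests, 27306 in all. limma 3.58.1 in R 4.3.3 (lmFit, eBayes with a trend) was fitted over all of these and again over the 12386 genes, each by its brightest probe set, two-sided with Benjamini-Hochberg adjustment over everything tested. The fit has 1 residual degree of freedom, to which moderation added 6.36, and the lone scrambled array is assumed to vary like the siRNA arrays. The scripts were tested on simulated data. Genes were named from the platform annotation given for this work, which named 1 gene for 41091 probe sets, several for 1801 and none for 11721. Promoter sequences are from RefSeq (GRCh38.p14), used only for those windows. Signals are given for members past the threshold or 2-fold on both siRNA arrays, the highest and lowest of each role and the named pairs, and the other members were added for completeness. LIPA, ELOVL6, TYR, TYRP1 and the further genes short of the threshold were singled out after their values were seen. The members and lists were chosen with earlier results of these data known. Some genes of the further lists and of the marker lists are not reported here. Alternatives were quantile normalization, centring, other pseudocounts, filters and models of the spread, the mean of probe sets, and leaving out each siRNA array.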

Additional observations from a re-analysis of the deposited data

Results flagged for a closer look

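Ribosomal RNA controls lie outside every comparison made here, and siRNA array 1 read them brighter than the scrambled array did, by a median factor of 4.01. On siRNA array 2 the ratio was 0.963.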

How the results depend on the processing

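Over 17 named genes and the alternatives run for them (186 values), 163 kept their direction and their side of the threshold, 20 lost a call and 3 changed sign. The lost calls were of NPC1 with no filter (adjusted p = 0.0915), no trend (0.152) and the mean of probe sets (0.168), and of NPC2 with arrays centred (0.0670), a pseudocount at the 50th percentile (0.0534), no filter (0.128), a filter at the 75th percentile (0.0631) and no trend (0.198), and of ELOVL6 with quantile normalization (0.0894) and the last 4 of those settings, all by limma. TYRP1 lost its call with no filter (0.0902), no trend (0.140) and robust moderation (0.0840), and TYR with no filter (0.128), the filter at the 75th percentile (0.0501), no trend (0.186) and the mean of probe sets (0.104). Over the alternatives the adjusted p was 0.0112 to 0.168 for NPC1, 0.0367 to 0.198 for NPC2 and 0.0352 to 0.150 for ELOVL6. The sign changes were in values near 0: SREBF2 with arrays centred (-0.039), and LSS and ABCG1 without siRNA array 1 (0.093 and 0.18; -0.37 and -0.34 without siRNA array 2). Centring also turned the median over all genes to -0.067.

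Genes higher past the threshold numbered 1 in the main setting, and 0 with arrays centred, a pseudocount at the 50th percentile, no filter, a filter at the 75th percentile or no trend. Genes lower numbered 1, and 0 with no filter, no trend or the mean of probe sets. Over probe sets of these genes, 1 lower and 0 higher passed. With quantile normalization it was 0 lower and 1 higher, with 0 at least 2-fold on both siRNA arrays against 1 in the main setting, and it was 0 lower with no filter, a filter at the 75th percentile or no trend. Taken on a single siRNA array, 5 (array 1) and 6 (array 2) of the 50 tested probe sets of these genes differed at least 2-fold. The same share over all probe sets was not computed, so these counts have no background beside them. Over all 27306 probe sets, 324 higher and 247 lower passed. The counts were 203 and 154 with quantile normalization, 254 and 468 with centring, 1 and 0 with no filter or no trend, 6 and 3 with the filter at the 75th percentile; 204 were higher with a pseudocount at the 50th percentile. Without siRNA array 1 or 2 the median difference over the genes was 0.51 or 0.11. Those settings leave 1 array against 1 and no test. No paired analysis was possible because the scrambled group has 1 array. With the stricter filter 25 of the 27 genes were tested. The cause of each change was not tested.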
